A study of Mus musculus with 6 samples.

Results

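The genes described here encode enzymes that alter steroid and thyroid hormones: the deiodinase Dio1, the hydroxysteroid dehydrogenases Hsd3b2, Hsd3b3, Hsd17b2, Hsd17b4 and Hsd17b11, and the sulfotransferase Sult1a1. They were picked by symbol, 7 genes of 37991 in the count tables, with their difference between polyp and surrounding tissue already known. That difference is therefore given as a description of these libraries. Whether a gene had an adjusted p under 0.05 is stated as part of that description, not as an independent test. Cecal RNA was sequenced from 3 HBUS mice (animals 1119, 1192 and 1199) after 60 weeks, each giving a pair of samples: a serrated polyp and the normal distal cecum around it. HBUS is a transgenic line in which gut epithelium expresses HB-EGF, a growth factor, together with the viral receptor US28. Polyp and surrounding tissue therefore both carried the transgenes, and mice without them were not part of the comparison. The RNA went through a kit that removes mammalian RNA, which may have changed what was left to count. The samples were whole tissue, in which fewer cells of a type and less RNA per cell cannot be told apart.

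Steroid and thyroid hormones reach the gut from the blood, from bile and from the lumen, and the intestinal epithelium holds enzymes that oxidise, sulfate or deiodinate them. Members of the 17-beta hydroxysteroid dehydrogenase family interconvert potent hydroxy and weaker keto steroids, and HSD17B2 in humans acts mainly in the oxidative, inactivating direction on estradiol and testosterone. Sulfotransferases add a sulfate group taken from the donor PAPS, which makes the product water soluble and unable to bind nuclear receptors. Deiodinases remove iodine from thyroxine. The type 1 enzyme Dio1 both yields the active hormone T3 and clears inactive or sulfated iodothyronines. The 3-beta dehydrogenases Hsd3b2 and Hsd3b3 oxidise and isomerise delta-5 steroids, a step best known from steroid synthesis, so the common name of inactivating enzymes covers the members unevenly.

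Library totals ran from 6632645 to 13350119 counts, of which mitochondrial rRNA took 46.4% to 75.3%, leaving 1852065 to 5096066 counts for all other genes. All 21 absorptive colonocyte markers and all 20 general epithelial markers in the tables were detected. Summed markers of colonocytes, the absorptive surface cells, went from 14570 CPM (counts relative to library size, corrected for composition) in surrounding tissue to 10052 in the polyp of mouse 1119, from 11647 to 12735 in mouse 1192 and from 19132 to 14805 in mouse 1199. The largest part of that sum came from Car1. In mice 1119, 1192 and 1199 Car1 had 8357, 6587 and 9938 CPM in surrounding tissue and 4667, 7755 and 7606 in polyps. The median colonocyte marker, given below, was lower in the polyp of each mouse. Summed general epithelial markers were higher in the polyp of every mouse, at 5127 to 8257 CPM in surrounding tissue and 7923 to 9951 in polyps. Krt8, the most abundant of them, had 1276, 1014 and 1788 CPM in surrounding tissue of mice 1119, 1192 and 1199 and 1930, 1932 and 2706 in polyps. The median log2 difference of the general epithelial markers was smaller, at 0.08, 0.41 and 0.06 in those mice. Smooth muscle markers summed to 269 to 287.3 CPM in surrounding tissue and 70.5 to 149.5 in polyps, and fibroblast markers to 81.2 to 167 and 229.9 to 599.7. Goblet cell markers, of mucus-secreting cells, summed to 2802, 3618 and 3049 CPM in the surrounding tissue of mice 1119, 1192 and 1199 and to 1392, 2793 and 1743 in their polyps, lower in each mouse. Of the 8 goblet markers 3 fell (Clca1, Zg16 and Fcgbp), at a median log2 fold change of -0.55 over the list. Their part in the differences below was not tested.

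In polyps, 6 of the 7 enzyme transcripts were lower than in the surrounding cecum of the same mouse in all 3 mice, and Hsd17b11 in 2 of 3. The differences ranged from 5.68-fold for Dio1 to 1.06-fold for Hsd17b11. All 7 passed the filter on low counts, and in the fit across 10960 genes 4 of them (Dio1, Sult1a1, Hsd3b3 and Hsd17b2) had an adjusted p under 0.05 (edgeR quasi-likelihood test, mice entered as blocks), all lower. Of all genes tested, 1.04% were called lower and 2.76% were called in either direction. Since these genes were picked on this contrast, nothing is read from that comparison of shares. The median log2 fold change was -0.93 over the 7 genes and -0.02 over all genes tested.

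Dio1 (ENSMUSG00000034785), the type 1 deiodinase, is a selenoenzyme. Its transcript stood at 9.66, 24.4 and 14.4 CPM in the surrounding tissue of mice 1119, 1192 and 1199 and at 2.54, 2.55 and 2.99 CPM in their polyps. The surrounding samples thus spread 2.52-fold while the polyps lay within 1.18-fold of each other, and the groups did not overlap. Behind these levels were 102, 342 and 64 counts in surrounding tissue and 21, 31 and 21 in polyps, so counting error alone is sizeable in the polyps. The fitted log2 fold change of polyp over surrounding tissue was -2.51 ± 0.38 (standard error, n = 3 pairs), and 66 of the 10960 genes tested had a lower value. The mouse with the highest surrounding level, 1192, also had the largest difference.

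Sult1a1 (ENSMUSG00000030711) encodes a sulfotransferase that acts on phenols and, in humans, also on estrogens and iodothyronines. It was at 12.2, 42.3 and 15.3 CPM in the surrounding tissue of mice 1119, 1192 and 1199 and at 2.06, 17.4 and 3.41 CPM in their polyps. Mouse 1192 was highest in both tissues, and its polyp lay above the surrounding tissue of the other mice, so the groups overlapped although each polyp was lower than its own surrounding tissue. The log2 differences were -2.45, -1.27 and -2.10 in that order of mice, and the fitted value was -1.93 ± 0.32. Without the mouse block the value was -1.59 ± 0.90 and Sult1a1 was no longer called. Its exons overlap those of Sgf29 on the other strand in the GENCODE M21 annotation, and whether strand was kept is not given in the sources used here. Sgf29 had 2 to 55 counts per library against 17 to 594 for Sult1a1.

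**Figure D1:**
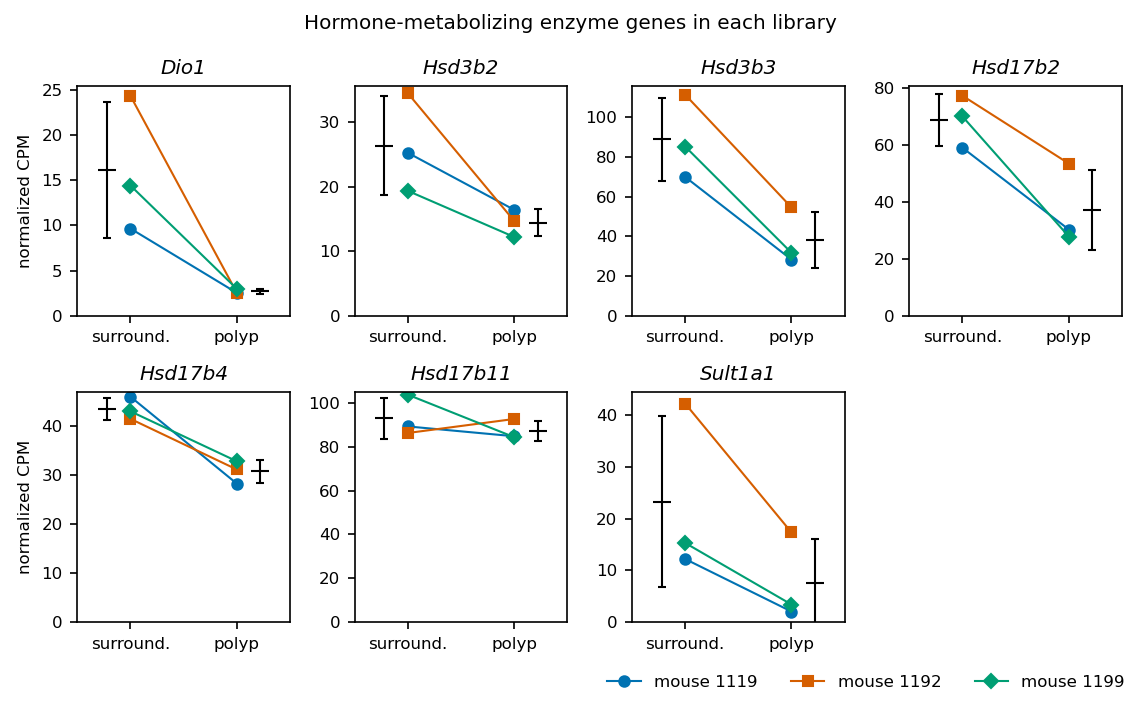
Normalized CPM (y axis, linear from 0, a scale for each gene) of the 7 enzyme genes in surrounding tissue and polyp, with lines joining the samples of a mouse and black bars for mean ± SD (n = 3), cut at 0 for Sult1a1. Dio1 spans 9.66 to 24.4 CPM in surrounding tissue and a narrow band of 2.54 to 2.99 in polyps, while the lines of Hsd17b11 are nearly level.

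Hsd3b3 (ENSMUSG00000062410) and Hsd3b2 (ENSMUSG00000063730) are neighbouring 3-beta dehydrogenase genes on chromosome 3. Hsd3b3 had 69.9, 111 and 85.2 CPM in the surrounding tissue of mice 1119, 1192 and 1199 and 28.3, 54.5 and 31.7 CPM in their polyps. The groups did not overlap, the log2 differences of the mice were close to each other (-1.30, -1.03 and -1.42), and the fitted value was -1.25 ± 0.16. Hsd3b2 had 25.3, 34.5 and 19.4 CPM in surrounding tissue and 16.4, 14.7 and 12.2 CPM in polyps, again without overlap. In mouse 1199 both samples had 86 Hsd3b2 counts, so the lower CPM of that polyp rests on the correction for composition. Its factor was 0.593 for the surrounding tissue of mouse 1199 and 1.06 for the polyp. The fitted difference of Hsd3b2 was -0.85 ± 0.23 on the log2 scale and was not called. The ratio of Hsd3b3 to Hsd3b2 CPM was 2.76, 3.22 and 4.395 in surrounding tissue and 1.72, 3.70 and 2.59 in polyps, lower in the polyp of mice 1119 and 1199 and higher in that of mouse 1192.

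How reads were divided between these copies limits how far they can be told apart. Exons of Hsd3b2 and of Hsd3b3 also overlap those of Zfp697 on the other strand, which had 0 to 12 counts per library. Of the distinct 50-base windows in annotated Hsd3b2 transcripts, 25.1% also occur in another gene (Hsd3b3 or Hsd3b6 among them). For Hsd3b3 the share was 6.69%, for Sult1a1 6.58% (matched by the gene model Gm6939), and for Dio1, Hsd17b2, Hsd17b4 and Hsd17b11 none of the windows was shared. Counts of all Hsd3b genes in the tables except Hsd3b7, summed into 1 value, gave 95.4, 147 and 104.6 CPM in surrounding tissue and 44.7, 69.3 and 43.9 in polyps. The summed difference was -1.14 ± 0.14 on the log2 scale, between those of the separate genes. Of the other copies, Hsd3b6 had 2 counts in all, in the surrounding tissue of mouse 1119, Hsd3b1 had 12 counts, all in the surrounding tissue of mouse 1192, and Hsd3b5 had 0 in every library, where the limit that a count of 0 allows is 0.213 to 0.675 CPM per library.

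Among the 17-beta dehydrogenases, Hsd17b2 (ENSMUSG00000031844) was lower, Hsd17b4 less so, and Hsd17b11 near its surrounding level. Hsd17b2 had 59.1, 77.4 and 70.1 CPM in the surrounding tissue of mice 1119, 1192 and 1199 and 30.3, 53.5 and 27.9 CPM in their polyps. The polyp of mouse 1192 was the highest of the polyps and still below all surrounding samples, and the fitted log2 fold change was -0.93 ± 0.19. Hsd17b4 (ENSMUSG00000024507) encodes a peroxisomal protein that, besides oxidising estradiol, carries out steps of the beta-oxidation of very long chain and branched fatty acids. It had 46.03, 41.5 and 43.1 CPM in surrounding tissue and 28.3, 31.2 and 32.9 CPM in polyps. These were the tightest groups of the 7 genes in surrounding tissue (within 1.11-fold) and did not overlap, at a log2 fold change of -0.50 ± 0.17 that was not called. In mouse 1199 Hsd17b4 had 191 counts in surrounding tissue and 231 in the polyp, so its direction there rests on the correction for composition. The same holds for Hsd17b11 in that mouse, with 460 and 593 counts.

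Hsd17b11 (ENSMUSG00000029311), a dehydrogenase that sits on lipid droplets and the endoplasmic reticulum, had 89.2, 86.2 and 103.7 CPM in the surrounding tissue of those mice and 84.7, 92.6 and 84.3 CPM in their polyps. The groups overlapped, mouse 1192 went the other way, and the fitted difference was -0.09 ± 0.15. In all, 5 of the 7 genes had every polyp below every surrounding sample, an arrangement found in 8.58% of all genes tested. Being lower in each of the 3 mice, as 6 of the 7 were, was found in 18.6%.

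Per length, using the longest coding transcript in GENCODE M21, the order of levels in surrounding tissue was Hsd3b3 (57.9 ± 13.7 CPM per kb, SD, n = 3), Hsd17b2 (52.2 ± 6.98), Hsd17b11 (41.6 ± 4.18), Sult1a1 (16.99 ± 12.1), Hsd17b4 (16.2 ± 0.86), Dio1 (9.55 ± 4.43) and Hsd3b2 (7.15 ± 2.07). The sample ranges of Hsd3b3, Hsd17b2 and Hsd17b11 overlapped with each other, that of Sult1a1 overlapped with those of Hsd17b4, Dio1 and Hsd3b2, and Dio1 overlapped with Hsd3b2. In polyps the order began with Hsd17b11 (39.05 ± 2.09), followed by Hsd17b2 (28.2 ± 10.7) and Hsd3b3 (24.9 ± 9.31). Then came Hsd17b4 (11.5 ± 0.86), Sult1a1 (5.55 ± 6.18), Hsd3b2 (3.91 ± 0.57) and Dio1 (1.59 ± 0.15). In polyps the sample ranges overlapped between Hsd17b11 and Hsd17b2, Hsd17b2 and Hsd3b3, and Sult1a1 and each of Hsd17b4, Hsd3b2 and Dio1. Hsd17b11, behind Hsd3b3 and Hsd17b2 on average around the polyps, had the highest level per length in the polyp of each mouse, narrowly so in mouse 1192, where it had 41.5 CPM per kb against 40.6 for Hsd17b2. The level of Hsd3b2 rests on a transcript of 3695 bases, the longest of the set.

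**Figure D2:**
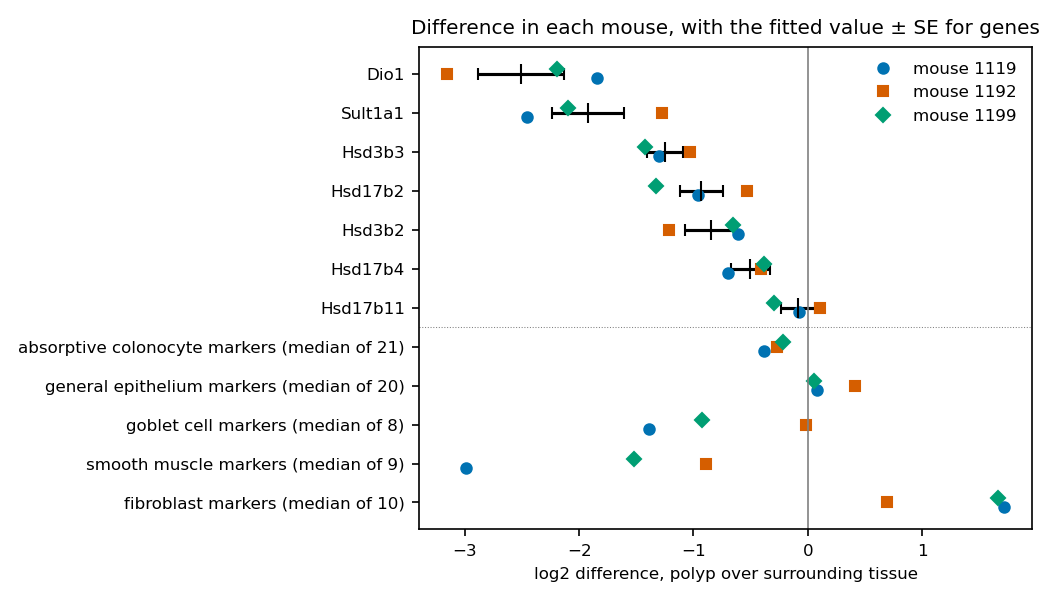
Log2 difference of polyp over surrounding tissue (x axis) in each mouse for the 7 enzyme genes, with the fitted value ± standard error in black, and below the dotted line the median difference of cell type marker lists. Enzyme genes range from -2.51 (Dio1) to -0.09 (Hsd17b11), and the median of general epithelial markers lies above 0 in all 3 mice.

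The median log2 difference of the 21 tested absorptive colonocyte markers was -0.39, -0.27 and -0.22 in mice 1119, 1192 and 1199, and 5 of the 21 fell (Slc26a3, Trpm6, Aqp8, Car4 and Fabp2). The fitted log2 fold changes of these 5 were -2.24, -1.90, -1.38, -3.20 and -1.21, a range that takes in those of Dio1, Sult1a1 and Hsd3b3. These 5 are the markers that were called, so that range does not describe the list. Over all 21 the median fitted value was -0.20, and 17 values were negative and 4 positive. Measured from the median difference in each mouse, Dio1 was lower by a further 1.46, 2.88 and 1.97, Sult1a1 by 2.07, 1.00 and 1.88, Hsd3b3 by 0.91, 0.75 and 1.20 and Hsd17b2 by 0.57, 0.26 and 1.10. Hsd3b2 stood 0.23, 0.95 and 0.43 below it and Hsd17b4 0.31, 0.14 and 0.17, and Hsd17b11 was above it in mice 1119 and 1192 and 0.08 below it in mouse 1199. Of the 20 general epithelial markers 15 had positive values, and 3 rose (Krt18, Krt19 and Krt8, at log2 fold changes of 1.57, 0.73 and 0.71). When libraries were scaled to these 20 markers, the rising ones included, a choice made after seeing the data, the median of all genes moved to -0.28. The calls over all genes went from 62.4% higher and 37.6% lower to 35.8% and 64.2%. On that scale Dio1 was at -2.76 and Hsd17b11 at -0.34, close to the median of all genes.

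The calls depend on which animals were counted. Of the 7 genes, 2 (Dio1 and Hsd3b3) were called without mouse 1119, 4 without mouse 1192 and 0 without mouse 1199, and 1 (Dio1) when the pairing was ignored. Without robust spread estimates Hsd17b2 was not called, which left 3. Over all genes the counts were 83, 281, 100 and 87, against 303 with all mice and the pairing. No enzyme gene changed its direction under any of these settings.

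Promoter sequences are shown for the 3-beta dehydrogenase pair, for Dio1 and Sult1a1, which had the largest differences, and for Hsd17b11, the member with the smallest difference. Hsd17b2 had no promoter entry in the source used, and Hsd17b4 was left out. The windows shown are RefSeq sequences of build GRCm38.p6, 250 bases before to 50 after the annotated start, 5′ to 3′ on the gene's strand, here minus for all. They lie at chr3:98763079-98763378 (Hsd3b3), chr3:98724494-98724793 (Hsd3b2), chr4:107307119-107307418 (Dio1), chr7:126676369-126676668 (Sult1a1) and chr5:104021747-104022046 (Hsd17b11). Capitals mark matches, on either strand, to any of 6 motifs. The TATA box was searched as TATAAA and the CCAAT box by the letters of its name. The core hexamer of nuclear receptor sites was searched as AGGTCA, and the core of HNF1 sites as GTTAAT. An HNF4 site was searched as CAAAGTCCA, and the GC box as GGGCGG. None of these matches overlapped.
Hsd3b3: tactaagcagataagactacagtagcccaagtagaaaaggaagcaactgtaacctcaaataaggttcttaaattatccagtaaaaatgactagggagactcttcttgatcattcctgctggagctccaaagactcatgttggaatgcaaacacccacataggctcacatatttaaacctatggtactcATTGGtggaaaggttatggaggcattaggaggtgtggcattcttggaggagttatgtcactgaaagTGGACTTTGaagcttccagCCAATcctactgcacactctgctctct
Hsd3b2: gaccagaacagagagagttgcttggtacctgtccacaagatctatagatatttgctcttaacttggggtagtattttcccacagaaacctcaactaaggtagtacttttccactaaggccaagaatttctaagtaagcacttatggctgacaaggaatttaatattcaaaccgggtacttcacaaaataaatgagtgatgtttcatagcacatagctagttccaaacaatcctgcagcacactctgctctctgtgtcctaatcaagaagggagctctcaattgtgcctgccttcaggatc
Dio1: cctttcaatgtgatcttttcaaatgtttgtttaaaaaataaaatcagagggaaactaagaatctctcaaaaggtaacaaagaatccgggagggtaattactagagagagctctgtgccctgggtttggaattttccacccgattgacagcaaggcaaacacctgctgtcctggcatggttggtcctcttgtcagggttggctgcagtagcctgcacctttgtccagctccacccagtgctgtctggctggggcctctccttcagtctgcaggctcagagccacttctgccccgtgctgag
Sult1a1: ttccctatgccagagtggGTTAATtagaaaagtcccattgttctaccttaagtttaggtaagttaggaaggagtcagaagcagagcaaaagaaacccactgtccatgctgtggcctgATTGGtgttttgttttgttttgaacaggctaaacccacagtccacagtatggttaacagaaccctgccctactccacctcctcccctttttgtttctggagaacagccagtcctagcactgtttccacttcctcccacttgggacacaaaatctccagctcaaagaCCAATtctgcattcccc
Hsd17b11: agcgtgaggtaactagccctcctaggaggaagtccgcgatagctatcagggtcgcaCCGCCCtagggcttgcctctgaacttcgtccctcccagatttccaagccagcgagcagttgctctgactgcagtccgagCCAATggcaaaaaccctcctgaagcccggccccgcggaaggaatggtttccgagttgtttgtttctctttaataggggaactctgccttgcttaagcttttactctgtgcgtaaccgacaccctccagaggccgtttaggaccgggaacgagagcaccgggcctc

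The HNF4 site was found in the Hsd3b3 window alone of the 5, from base 5 counted from the annotated start, on the opposite strand, and 0.475% of 32851 promoter windows of this length hold it. CCAAT was found in Hsd3b3, Hsd17b11 and Sult1a1 and in 37.4% of all windows. GTTAAT was found in Sult1a1 and in 7.10% of all windows, and GGGCGG in Hsd17b11 and in 35.7%. TATAAA and AGGTCA, held by 13.6% and 16.3% of all windows, are not among the letters of these 5. The Dio1 and Hsd3b2 windows matched none of the 6 motifs. The longest run shared by the Hsd3b2 and Hsd3b3 windows is GCACACTCTGCTCTCT, 16 bases, which begins 14 bases before the annotated start of Hsd3b2 and at base 35 counted from that of Hsd3b3. The GC content of the Hsd17b11 window was 57.0% and that of the other windows 41.3% to 49.7%. Hnf4a itself, the gene of the nuclear receptor HNF4-alpha, had 437 ± 18.8 CPM in surrounding tissue and 384 ± 9.17 in the polyps and was not called (log2 fold change -0.19 ± 0.13, adjusted p = 0.582).

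Genes that share pathways with these enzymes were taken from 11 lists of 236 genes in all, and 157 of them could be tested. Of these, 3 rose and 14 fell (1.91% and 8.92%, against 1.72% and 1.04% of all genes tested), with a median log2 fold change of -0.22. The lists were chosen by function but with earlier results of these data known, so nothing is read from the comparison of shares. The 14 genes that fell came from 8 of the 11 lists, and those that rose were Me1, Txnrd1 and Dgat2. Without mouse 1119, 1192 or 1199, 5, 12 and 3 of these 17 genes were still called, and 6 were without the pairing. Slc26a2 and Txnrd1 were called in each of these 4 settings. None of the 17 changed direction under any alternative.

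**Figure D3:**
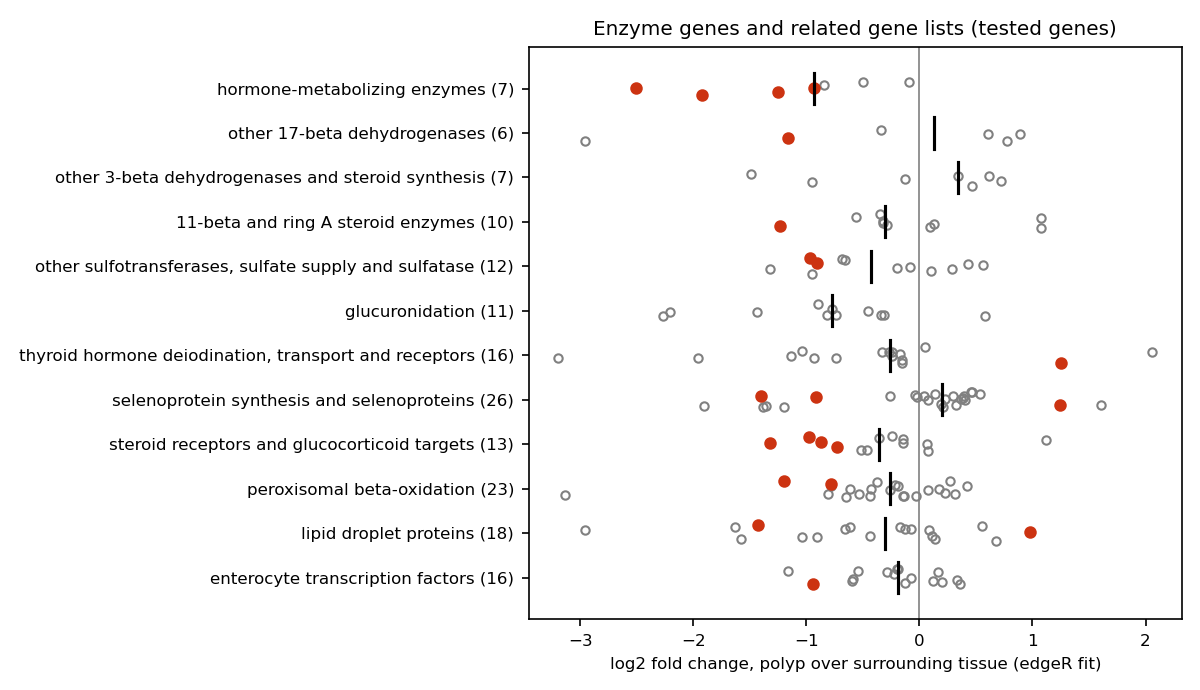
Fitted log2 fold change of polyp over surrounding tissue (x axis) for each tested gene of the 7 enzymes and of the 11 related lists, with the number tested in brackets, filled red where the adjusted p was under 0.05 and a black line at each median. Of the related genes, 14 of the 17 filled points lie below 0, and the lists of 3-beta dehydrogenases and glucuronidation have none.

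Of the sulfation list, sulfotransferases other than Sult1a1 with the genes that supply activated sulfate, 2 of 12 tested genes fell. Slc26a2, a sulfate transporter of the colonocyte, had 711, 697 and 556 CPM in the surrounding tissue of mice 1119, 1192 and 1199 and 369, 347 and 285 in their polyps. Its groups did not overlap, at a log2 fold change of -0.97 ± 0.13 (adjusted p = 0.0118). Papss2, which makes the sulfate donor PAPS, had 334, 467 and 286 CPM in surrounding tissue and 190.3, 221 and 161 in polyps (log2 fold change -0.91 ± 0.14, adjusted p = 0.0153), and was not called without mouse 1199 or without the pairing. The sulfotransferase gene Sult1b1, whose product sulfates thyroid hormones, went from 85.5 ± 12.1 to 52.8 ± 3.30 CPM and just missed the threshold (adjusted p = 0.0505). The ratio of Sult1a1 to Sult1b1 CPM was 0.169, 0.479 and 0.1596 in surrounding tissue and 0.0405, 0.340 and 0.0603 in polyps, lower in each polyp. Sult1c2 was too low to test, with 1 to 30 counts per library.

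Glucuronidation is the other main route of steroid conjugation, and 10 of its 11 tested genes had values below 0, the median being -0.77 on the log2 scale. Of all genes tested, 51.6% had values below 0. Sequence shared between the Ugt1a genes on this list was not examined, so they may not count as separate genes. By edgeR 0 passed, 0 higher and 6 lower had an unadjusted p under 0.05, and 2 passed with DESeq2 and 1 with limma-voom, all lower. Over all 10960 genes, 687 were lower at that unadjusted level. The gene with the smallest p was Ugt2b34, at 172, 204 and 161 CPM in the surrounding tissue of mice 1119, 1192 and 1199 and 75.6, 165 and 81.9 in their polyps (adjusted p = 0.0587). The polyp of mouse 1192 lay above the surrounding tissue of mouse 1199, so the groups overlapped. Without mouse 1192, 3 genes of the list passed.

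Other steroid dehydrogenases did not share a direction. Among the remaining 17-beta dehydrogenases, 1 of 6 tested genes fell, Dhrs11, which acts on 17-keto and 3-keto steroids in humans. Dhrs11 had 29.1, 35.7 and 18.5 CPM in surrounding tissue and 11.97, 12.5 and 11.9 in their polyps (log2 fold change -1.16 ± 0.25, adjusted p = 0.0473). Leaving out any 1 mouse lost the call for Dhrs11, as did a fit without the pairing or without robust spread estimates. Hsd17b7, which also serves cholesterol synthesis, and Hsd17b12, which elongates fatty acids, had positive values of 0.78 ± 0.18 and 0.61 ± 0.18 without passing (adjusted p = 0.0712 and 0.140). Hsd17b1, Hsd17b3 and Hsd17b6 had 0 counts in every library.

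Of the 11-beta and ring A list, enzymes that reduce steroid rings or interconvert cortisone-type steroids, 1 of 10 tested genes fell. This was Akr1c14, a 3-alpha hydroxysteroid dehydrogenase, at 85.9, 60.5 and 48.7 CPM in the surrounding tissue of mice 1119, 1192 and 1199 and 24.1, 29.7 and 27.3 in their polyps (log2 fold change -1.24 ± 0.22, adjusted p = 0.0244). As with Dio1 and Dhrs11, the polyps lay closer together than the surrounding samples. Akr1c14 was not called without mouse 1119 or 1199. Hsd11b2, which inactivates glucocorticoids beside the mineralocorticoid receptor, had 29.2 ± 8.35 CPM in surrounding tissue and 32.6 ± 13.1 in the polyps (adjusted p = 0.854). The counterpart Hsd11b1 had 0 to 12 counts per library and was not tested.

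For steroid synthesis beyond Hsd3b2 and Hsd3b3, 7 of the 22 listed genes could be tested, and by edgeR 0 passed, with 1 higher and 0 lower at an unadjusted p under 0.05 and 0 with DESeq2 or limma-voom. Cyp11a1, which starts steroid synthesis by cleaving the cholesterol side chain, had 4 counts in all, in the polyp of mouse 1119. Cyp17a1 had 1 count in all, and Cyp19a1, which makes estrogens, had 0. The nuclear receptor gene Nr5a2, an activator of intestinal steroid synthesis in mice, was measured at 4.03 ± 1.46 and 7.18 ± 5.78 CPM (adjusted p = 0.673). Hsd3b7, a bile acid synthesis enzyme of the same family, had 4.76 ± 0.75 and 6.71 ± 2.18 CPM (adjusted p = 0.692). The gene with the smallest p, Tspo, a mitochondrial outer membrane protein, had 13.7 ± 1.58 and 23.1 ± 5.92 CPM (adjusted p = 0.171).

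Among receptors and glucocorticoid targets, 4 of 13 tested genes fell. The mineralocorticoid receptor gene Nr3c2 had 135, 154 and 115 CPM in the surrounding tissue of mice 1119, 1192 and 1199 and 70.7, 91.7 and 81.8 in their polyps (adjusted p = 0.0395), while the glucocorticoid receptor gene Nr3c1 had 88.3 ± 9.27 and 79.5 ± 2.30 CPM (adjusted p = 0.7096). The vitamin D receptor gene Vdr went from 113 ± 27.7 to 61.1 ± 9.38 CPM (adjusted p = 0.0289). Tsc22d3, a glucocorticoid-induced regulator also known as GILZ, went from 17.2 ± 5.37 to 6.72 ± 0.50 CPM (adjusted p = 0.0499). The steroid-induced kinase gene Sgk1 had 24.9, 71.2 and 79.8 CPM in surrounding tissue and 13.5, 41.5 and 32.7 in the polyps (adjusted p = 0.0254), with mouse 1119 low in both tissues. With mouse 1119 or 1199 left out, or the pairing ignored, 0 of the 4 were called, and without mouse 1192 Sgk1 and Vdr were. Without robust spread estimates Nr3c2 and Tsc22d3 lost their calls (adjusted p = 0.0590 and 0.0550).

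**Figure D4:**
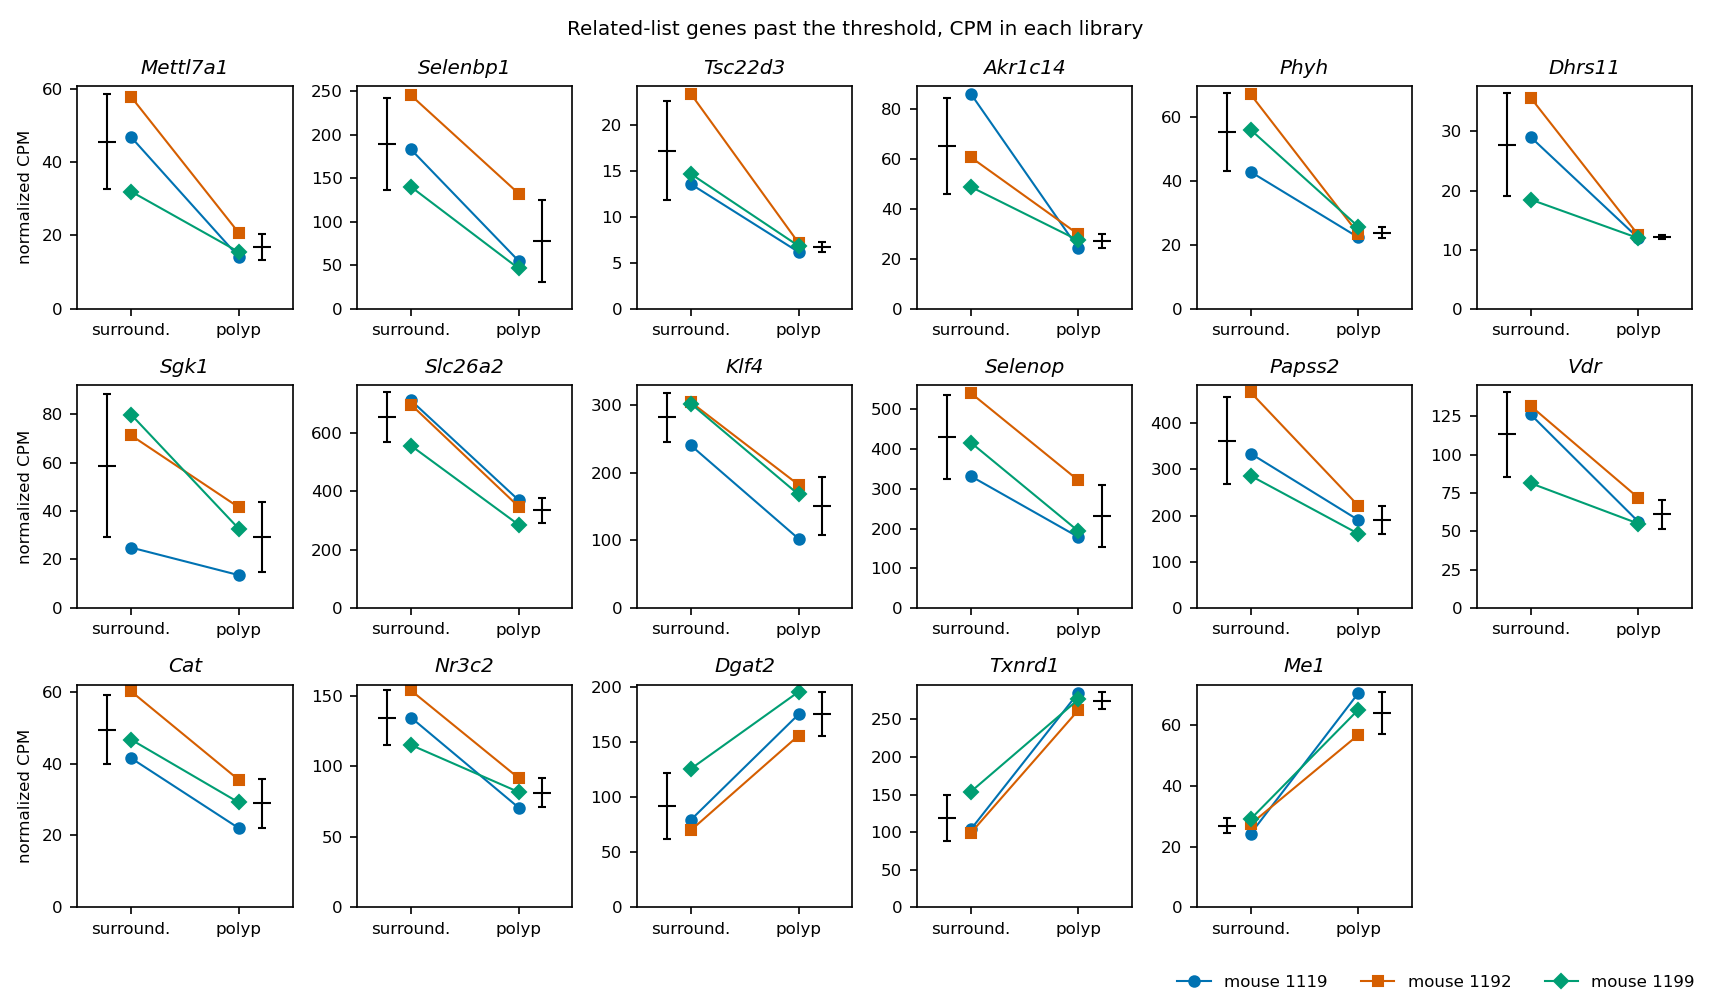
Normalized CPM (y axis, linear from 0, a scale for each gene) of the 17 related genes past the threshold in surrounding tissue and polyp, with lines joining the samples of a mouse and black bars for mean ± SD (n = 3). Every line slopes down for the 14 genes that fell and up for Dgat2, Txnrd1 and Me1, and the polyps of Dhrs11 lie between 11.9 and 12.5 CPM.

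The thyroid hormone list had 1 called gene of 16 tested. Me1, malic enzyme, which thyroid hormone induces in rodent liver and which also answers to other regulators, rose from 24.2, 27.4 and 29.1 CPM in the surrounding tissue of mice 1119, 1192 and 1199 to 70.6, 56.8 and 65.1 in their polyps (log2 fold change 1.25 ± 0.17, adjusted p = 0.0130). Me1 was not called without mouse 1119 or 1199. The thyroid hormone receptor gene Thrb had 9.19, 15.7 and 5.635 CPM in surrounding tissue and 5.80, 3.95 and 3.56 in polyps without passing (adjusted p = 0.223), and Thra had 21.1 ± 2.66 and 19.0 ± 4.13 CPM (adjusted p = 0.813). Dio2, the deiodinase that makes T3 inside cells, was at 0.852, 0.427 and 3.61 CPM in surrounding tissue and at 26.6, 0.247 and 6.83 CPM in polyps. The polyps of mice 1119 and 1199 were higher than their surrounding tissue, that of mouse 1192 was lower, and the gene did not pass (log2 fold change 2.06 ± 1.05, adjusted p = 0.452). Dio3, which inactivates T3, had 0 counts in every library.

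Dio1 belongs to the selenoproteins, of whose list (with the genes of their synthesis) 1 of 26 tested genes rose and 2 fell, at a median of 0.20. Txnrd1, cytosolic thioredoxin reductase, rose from 119 ± 30.4 to 275 ± 11.7 CPM (adjusted p = 0.0116). Selenop, the secreted carrier of selenium, had 332, 541 and 417 CPM in the surrounding tissue of mice 1119, 1192 and 1199 and 178, 321 and 193 in their polyps (adjusted p = 0.0153). Selenbp1, which binds selenium but is not a selenoprotein with selenocysteine, went from 189 ± 52.9 to 77.8 ± 47.4 CPM (adjusted p = 0.0116). Selenbp1 and Selenop were each called in some of the settings with a mouse left out: Selenbp1 without mouse 1119 or 1192 and Selenop without mouse 1192. Neither was called when the pairing was ignored (adjusted p = 0.250 and 0.172).

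Hsd17b4 works in the peroxisome and Hsd17b11 on lipid droplets. Of the peroxisomal list 2 of 23 tested genes fell, at a median of -0.26. Phyh, which starts the alpha-oxidation of branched fatty acids, had 42.9, 67.2 and 56.1 CPM in surrounding tissue and 22.4, 23.5 and 25.7 in polyps (log2 fold change -1.20 ± 0.18, adjusted p = 0.0153), and catalase, Cat, went from 49.4 ± 9.61 to 28.9 ± 6.73 (adjusted p = 0.0443). Phyh was not called without mouse 1199, and Cat lost its call when any 1 mouse was omitted, when the pairing was ignored and without robust spread estimates (adjusted p = 0.0526 in the latter). Of the lipid droplet list 1 of 18 tested genes rose and 1 fell. Dgat2, which makes triglycerides, rose from 91.7 ± 29.9 to 176 ± 19.9 CPM, and Mettl7a1, a methyltransferase-like droplet protein, went from 45.6 ± 13.0 to 16.8 ± 3.48 CPM. Their adjusted p-values were 0.0174 and 0.0138. The call for Dgat2 was lost when any 1 mouse was left out, without the pairing or when scaled to epithelial markers, and Mettl7a1 did not pass without mouse 1119.

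Of the enterocyte transcription factor list 1 of 16 tested genes fell, at a median of -0.19. Klf4, a factor of differentiating colonic epithelium, had 240.1, 304 and 302 CPM in the surrounding tissue of mice 1119, 1192 and 1199 and 102, 182 and 168 in their polyps (log2 fold change -0.94 ± 0.15, adjusted p = 0.0174). Klf4 lost its call when mouse 1119 or 1199 was left out or the pairing ignored.

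The genes whose pattern was most like that of the enzymes were found by the Pearson correlation of log2 CPM over the 6 libraries with the mean standardised profile of the 7 genes. The libraries share mice, tissue and depth, so these values describe them and carry no test. Gene models without a proper name were left out, as was any symbol that opens with a capital letter and a digit. Of the rest, the 8 highest were Hepacam2 (0.991), Mettl7b (0.989), Rfk (0.988), Slc16a1 (0.987), Adra2a (0.985), Tfrc (0.981), Ptprd (0.980) and Cdo1 (0.980). Mettl7b is also on the lipid droplet list. Slc16a1, the monocarboxylate transporter MCT1, had 297 ± 20.9 CPM in surrounding tissue and 148 ± 31.5 in the polyps, and Adra2a, an adrenergic receptor, 106 ± 19.7 and 46.9 ± 14.2. Tfrc, the transferrin receptor, had 175 ± 17.8 and 104 ± 17.1. Cdo1, cysteine dioxygenase, had 1.70, 1.78 and 2.03 CPM in the surrounding tissue of mice 1119, 1192 and 1199 and 0, 0.576 and 0 in their polyps, and was not called (adjusted p = 0.321). The enzyme genes themselves, each of which enters that mean, gave 0.99 for Hsd3b3, 0.974 for Hsd17b2, 0.926 for Dio1, 0.896 for Sult1a1, 0.874 for Hsd17b4, 0.815 for Hsd3b2 and 0.544 for Hsd17b11.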

How the data were processed

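The deposited values are raw counts per Ensembl gene, 1 table per library, which the authors had not normalized, judging from whole numbers with unequal totals. Per the submitters' processing notes the tools were TopHat2 2.0.7, Bowtie 0.12.9 and HTSeq 0.5.3p9. Settings, build, annotation and strandedness: not given in the sources used here. Per the labels' protocols, RNA was treated with MICROBEnrich, a kit that removes mammalian RNA, and depleted of rRNA, so the mouse counts may cover what was left after that step. Symbols came from GENCODE M21, which named 32919 of 37991 identifiers.

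All genes were fitted with edgeR 4.0.16 (R 4.3.3): filterByExpr with a minimum count of 10 (10960 genes kept), TMM, robust quasi-likelihood test, two-sided, with the mouse as a block because the series is described as paired and titles carry the animal's number. Deviations from tissue means correlated at 0.0719, 0.127 and 0.159 within mice 1119, 1192 and 1199 and at -0.12 to -0.00294 between mice. Such deviations cancel within each tissue, so positive values within mice bring negative values between mice. The contrast of signs is therefore partly built in. No library looked like a copy of another (chi-square over genes divided by its degrees of freedom was 22.5 to 81.6 within tissues). P-values were Benjamini-Hochberg adjusted over all genes and called under 0.05. Standard errors are derived from the test statistic, and log2 differences of single mice use a prior count of 2. The fit was tested on simulated data. Alternatives included DESeq2 1.42.0 and limma-voom (limma 3.58.1). Python 3.11.15 drew the figures. Floors are 3 counts on the same normalized scale and cover counting error only, since fragments carry no molecular identifiers.

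The enzyme genes and all lists were chosen with earlier results of these data known. Genes named were the 7 enzymes and the called genes of each related list (at most 4 by smallest p, or the gene with the smallest p where none passed). Also named were 14 genes listed whatever their values and the 8 genes with the most similar pattern after the exclusions given above. Hnf4a, Hsd17b7, Hsd17b12, Hsd17b13 and the further genes named at low counts fall outside that rule and were chosen after their values were seen.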

Additional observations from a re-analysis of the deposited data

How the results depend on the processing

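Over all genes, 303 were called with the mouse as a block, 87 without the block for pairing, 753 without the filter on low counts, 541 with DESeq2 and 83 to 281 with a mouse left out. The enzyme genes called numbered 4, 1 without the block for pairing and 0 to 4 with a mouse left out. The related genes called numbered 17, 6 without the block, 30 without the filter, 26 with DESeq2 and 3 to 17 with a mouse left out. RLE or upper-quartile normalization, removal of genes above 1% of a library, fits without robust spread and limma-voom kept these 3 counts within 1.5 times of the reported ones (without robust spread 254, 3 and 13, with Hsd17b2, Cat, Dhrs11, Nr3c2 and Tsc22d3 losing their calls), and so did scaling to epithelial markers. For single enzyme genes, 86 alternative values were computed: 0 changed direction, 10 lost the call and 2 gained it. Those gained were Hsd3b2 without the filter and the summed Hsd3b genes set against Hsd3b2. The summed value is 1 fit, entered for both Hsd3b2 and Hsd3b3. Most of its counts were those of Hsd3b3, so it is not a call of Hsd3b2 itself. The ranges of the log2 fold change over alternatives, the summed Hsd3b genes included, were -2.79 to -2.13 for Dio1, -2.40 to -1.54 for Sult1a1, -1.50 to -1.14 for Hsd3b3, -1.19 to -0.76 for Hsd17b2, -1.14 to -0.68 for Hsd3b2, -0.76 to -0.41 for Hsd17b4 and -0.34 to -0.0012 for Hsd17b11. In the ranges of Hsd3b3 and Hsd3b2 the value of -1.14 is that of the summed genes, and without it they ended at -1.18 and -1.10. The cause of the lost calls was not tested. Fits without a mouse had both fewer samples and a different set of animals. Calls were also lost with all libraries kept, without the block and without robust spread. With 3 animals and as few as 1852065 counts outside mitochondrial rRNA in a library, the standard errors of the 7 log2 fold changes were 0.15 to 0.38, and that of Hsd17b11 was larger than its value.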

Other observations

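Some related genes had counts concentrated in 1 library. Iyd, which removes iodine from iodotyrosines, had 43 counts in the surrounding tissue of mouse 1192 and 0 to 5 in each other library. Cyp21a1, a steroid hydroxylase, had 29 counts in the polyp of mouse 1119, 8 in that of mouse 1199 and 0 elsewhere. Hsd17b13, a lipid droplet dehydrogenase, had 14.7 CPM in the surrounding tissue and 5.44 in the polyp of mouse 1119, against 2.56, 0.902, 0 and 0 in the other 4 libraries, and was not called (adjusted p = 0.184). These genes were chosen after their values were seen.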
